A study of Mus musculus with 6 samples.

Results

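Autophagy and lysosome membrane genes were followed in the pancreas of mice with caerulein-induced acute pancreatitis (AP), with and without polyI:C pretreatment. The 10 genes, among the 22556 with values, were chosen by name for their place in the pathway: Sqstm1, Vmp1, Map1lc3b, Gabarapl1, Atg5, Atg7, Becn1, Tfeb, Lamp1 and Lamp2. The choice was made with earlier results of these data known. RNA-sequencing was done on 6 whole pancreases of wild type C57BL/6 mice at 8 weeks of age, 2 per group. Saline mice received no caerulein, AP mice received caerulein, an analog of the hormone cholecystokinin that overstimulates acinar cells, and polyI:C-pretreated AP mice received polyI:C, a double-stranded RNA mimic, before caerulein. By the methods of the study, caerulein was given intraperitoneally 10 times at 200 µg/kg and 1 h apart, polyI:C once at 10 mg/kg, and the pancreas was taken 24 h after the first caerulein injection. No mice given polyI:C alone were among the samples, and the labels do not say whether the 2 samples of a group were handled separately, so the p-values measure only the spread between these samples.

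Macroautophagy encloses cytoplasm in a double membrane, the autophagosome, which then fuses with the lysosome for digestion. Beclin 1, encoded by Becn1, belongs to the lipid kinase complex that starts the membrane, and Vmp1 is a membrane protein of the endoplasmic reticulum needed for its growth. Atg7 and Atg5 act in the ubiquitin-like conjugation of Atg8 proteins, among them Map1lc3b (LC3B) and Gabarapl1, to the membrane lipid. Sqstm1 (p62) ties ubiquitinated cargo to the Atg8 proteins and is itself degraded with it. Lamp1 and Lamp2 are abundant glycoproteins of the lysosomal membrane, and Tfeb is a transcription factor of lysosome and autophagy genes. In the pancreas, disordered autophagy and the vacuoles of injured acinar cells are a known feature of experimental pancreatitis. The measurements here are of RNA, and RNA levels give no measure of autophagic flux or protein.

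Promoter windows from 250 bases before to 50 bases after a transcription start (RefSeq, GRCm38.p6) were held for 9 of the 10 genes, all but Becn1, in 13 windows. They were searched on both strands for the E-box CACGTG, the core to which MiT/TFE factors such as Tfeb can bind, for the CLEAR core TCACGTGA, which contains the E-box, for the antioxidant response element TGACNNNGC and for the AP-1 site TGAGTCA. The E-box was found for Lamp1, Atg5 and Atg7, in 3 of the 13 windows, and in 7.15% of all 32851 windows. Lamp1 held 4 of them within 73 bases of its start, a number reached by 8 of all windows (0.0244%). The sequences below are shown because they carry these matches, with the E-box in capitals.
Lamp1, chr8:13159088-13159160, plus strand, the 73 bases before the start: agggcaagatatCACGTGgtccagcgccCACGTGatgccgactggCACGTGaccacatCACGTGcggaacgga
Atg5, chr10:44268313-44268338, plus strand, the 26 bases before the start: cggagcgcttgcCACGTGgtcttggt
Atg7, chr6:114670952-114670981, plus strand, from 144 to 115 bases before an internal start: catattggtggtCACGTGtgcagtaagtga

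The antioxidant response element was found for Map1lc3b and in all 3 windows of Vmp1. Counted by window this is 4 of the 13, against 12.4% of all windows. The Vmp1 matches lie on the strand opposite to the gene and are shown in capitals, because Vmp1 is among the genes that differed most between the groups. The CLEAR core (0.974% of all windows) and the AP-1 site (5.2%) were in none of the 13 windows. For Sqstm1 none of the 4 motifs was in the window, and its 60 bases before the start are shown beside those of Vmp1 for comparison.
Vmp1, chr11:86683984-86684016, minus strand, from 180 to 148 bases before the first start: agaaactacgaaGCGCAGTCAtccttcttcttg
Vmp1, chr11:86683578-86683610, minus strand, from 87 to 55 bases before the second start: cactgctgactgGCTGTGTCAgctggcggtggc
Vmp1, chr11:86671317-86671349, minus strand, from 168 to 136 bases before the third start: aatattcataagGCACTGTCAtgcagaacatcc
Sqstm1, chr11:50210821-50210880, minus strand, the 60 bases before the start: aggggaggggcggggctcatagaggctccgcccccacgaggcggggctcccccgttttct
These matches describe the letters of the windows, and binding was not measured. Bases outside the windows were not searched, so a gene without a match here can hold one elsewhere.

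Levels are given as TPM (transcripts scaled to a fixed total), which divide the reads of a gene by its length and by the total of the sample, so that genes can be compared with each other. Depth was estimated from the spacing of low values at 3299104 to 3964678 reads in the saline mice and 6935208 to 10834472 in the others. The 2 samples of a group correlated across genes at r of 0.88 (saline), 0.92 (AP) and 0.89 (polyI:C-pretreated AP). A gene was called raised or reduced at an adjusted p of at most 0.05 (limma on log2(TPM + 0.5), two-sided, Benjamini-Hochberg over 16814 tested genes) with at least a 2-fold difference. With 2 samples against 2, an exact permutation test of 1 gene cannot go below p = 0.333, so all calls rest on the spread shared across genes. On the TPM scale the median gene stood 0.45 higher on the log2 scale in AP than in saline mice and 0.48 higher in polyI:C-pretreated AP than in saline mice. Scaling by the median of ratios, a second choice that centres the genes, left 0.06 in both. The calls split into 3053 raised and 677 reduced (81.8% raised) in AP against saline, and into 1590 and 1204 (56.9% raised) after that scaling. In polyI:C-pretreated AP against saline they split into 2838 and 500 (85.0% raised), and into 1339 and 969 (58.0% raised) after it.

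The labelled tissue was checked against marker genes. Of 20 acinar markers, 8 had values, with a summed level of 40182 to 42378 TPM in saline, 20415 to 24206 in AP and 26767 to 30166 in polyI:C-pretreated AP mice, and Spink1, a trypsin inhibitor of acinar cells, made up most of it. Against saline, 4 of the 8 were reduced in AP and 3 in polyI:C-pretreated AP mice, and none was raised. The 13 macrophage and monocyte markers summed to 495 to 768 TPM in saline, 2865 to 3310 in AP and 688 to 832 in polyI:C-pretreated AP mice. Of these, 12 were raised in AP against saline, and 6 were reduced in polyI:C-pretreated AP against AP. Lyz2 made up most of the sum in AP mice, and the markers went different ways in the pretreated mice. Against saline, Cd14, Cd68, Fcgr1 and C1qa were raised there and Lyz2 and Csf1r reduced, with a median log2 difference of 0.63 over the 13. Cd14, a co-receptor for lipopolysaccharide, measured 15.7 and 13.9 TPM in saline, 218 and 222 in AP, and 216 and 209 in polyI:C-pretreated AP mice. For neutrophils, 8 of 11 markers had values, and their sums were 5.15 to 16.6, 63.1 to 71.0 and 21.4 to 45.2 TPM in the 3 groups. Of the 6 tested, 3 were raised in AP against saline, and none was called in the other comparisons. Elane, a neutrophil elastase gene, was listed at 0 in both saline and both AP mice. The 8 ductal markers summed to 330 to 413, 1676 to 1772 and 1508 to 1514 TPM, and 4 were raised against saline in each caerulein group. Krt19, a ductal keratin, made up much of this, at 51.2 and 62.4 TPM in saline, 1016 and 1041 in AP, and 767 and 769 in polyI:C-pretreated AP mice. The 9 stellate cell and fibroblast markers summed to 640 to 893, 831 to 1032 and 736 to 884 TPM, with 4 raised in AP and 3 in polyI:C-pretreated AP against saline. This sum joins markers that went different ways. Dcn, most of the saline sum, measured 671 and 540 TPM in saline and 308 and 425 in AP mice, and was not called. Col3a1 measured 72.4 and 31.9 TPM in saline and 302 and 348 in AP mice. Of the islet, endothelial and lymphocyte markers tested, none was raised in the 3 comparisons, and 1 islet marker was reduced in polyI:C-pretreated AP against saline. In whole tissue RNA, fewer cells of a type and less RNA per cell cannot be told apart. By flow cytometry of AP pancreases, the paper found fewer neutrophils after polyI:C pretreatment, while infiltrated macrophages were not affected. The flow cytometry result is a percentage of cells, and the marker sum is a level of RNA. Whether macrophage number had a part in the lower macrophage marker sum was not tested. The part of these shifts in the differences described here was not tested.

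Across the groups, Lamp1 had the highest level of the 10 genes in saline mice and Sqstm1 in both caerulein groups. The saline order by mean TPM was Lamp1, Sqstm1, Gabarapl1, Lamp2, Map1lc3b, Vmp1, Atg5, Becn1, Atg7 and Tfeb. In AP and in polyI:C-pretreated AP mice it was Sqstm1, Lamp1, Vmp1, Lamp2, Gabarapl1, Map1lc3b, Atg5, Becn1, Atg7 and Tfeb. Neighbours whose samples overlapped were Gabarapl1 and Lamp2 in saline, Gabarapl1 and Map1lc3b in AP, and Map1lc3b and Atg5 in polyI:C-pretreated AP mice. All 10 passed the filter on low values (a mean of 1 TPM), with 27 to 10238 estimated reads per gene and sample, the fewest for Tfeb.

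**Figure D1:**
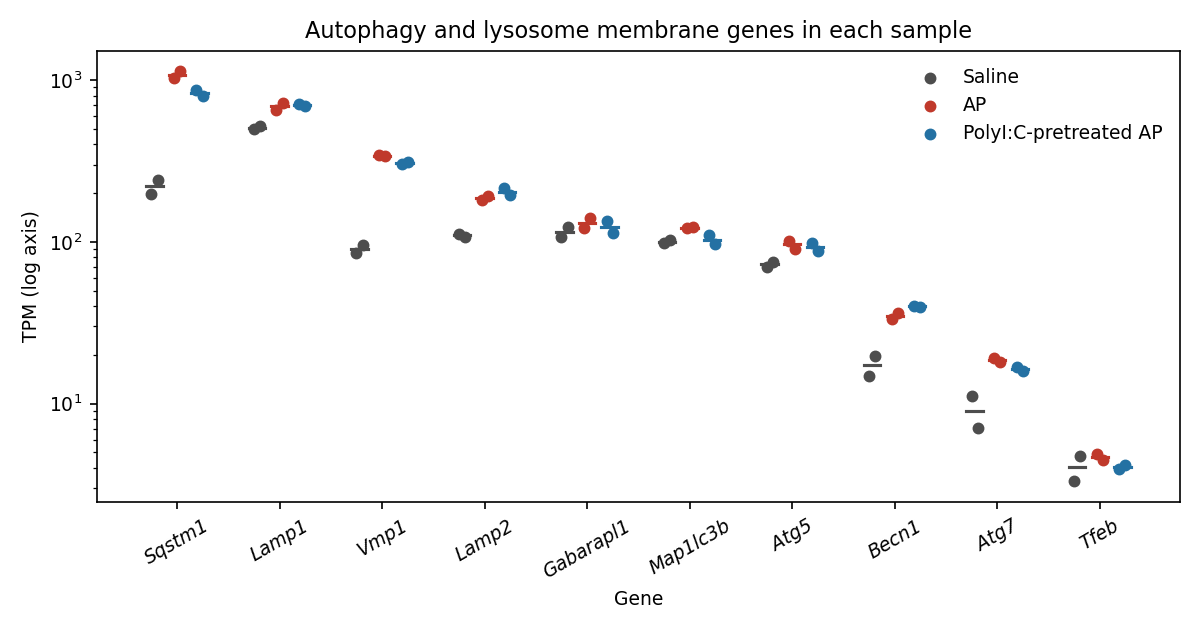
Level of the 10 genes in each pancreas, in TPM on a log axis, ordered by the mean in AP mice. Points are single samples and bars are group means (n = 2). Sqstm1 lies at 198 and 241 TPM in saline and between 795 and 1130.5 in the other 4, while the points of Gabarapl1 overlap between all groups.

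The first comparison, AP against saline, asks what caerulein injury did to these genes. Sqstm1, Vmp1, Atg7 and Becn1 were raised, none was reduced, and the other 6 were not called. Of all tested genes 18.2% were raised and 4.03% reduced, which is the background for the 4 of 10. Because the 10 were chosen with earlier results of these data known, the shares set beside the background are descriptive only. At the adjusted p alone 7 of the 10 were higher, against 33.0% of all genes. Both AP samples exceeded both saline samples for 8 of the 10, against 52.6% of all genes. The median log2 difference of the 10 was 0.60 beside 0.45 for all tested genes, and 5 of the 10 lay above that median. After median-of-ratios scaling only Sqstm1 and Vmp1 remained raised, against 9.46% of all genes, and 6 of the 10 differences were positive.

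Sqstm1 (ENSMUSG00000015837, chr11:50199366-50210827), the cargo receptor, showed the largest difference. It measured 198 and 241 TPM in saline mice, 1023 and 1130.5 in AP mice, and 872 and 795 in polyI:C-pretreated AP mice. Group means were 219.5 ± 30.9, 1077 ± 76.1 and 833 ± 54.5 TPM (SD, n = 2). All 4 samples of caerulein-treated mice lay far above the saline samples, and both AP samples lay above both polyI:C-pretreated ones. It rose in AP against saline by 2.30 on the log2 scale (SE 0.12, adjusted p = 7.1e-05, limma), a 4.91-fold difference, and 5.89% of tested genes had a larger one. Against saline, polyI:C-pretreated AP mice stood 1.93 higher (SE 0.12, adjusted p = 0.00013, limma). After median-of-ratios scaling these differences were 1.87 and 1.47, and Sqstm1 was still called in both. In AP both the macrophage and the ductal sums stood higher along with Sqstm1. In polyI:C-pretreated AP mice, where Sqstm1 was 3.80-fold above saline, the ductal sum also stayed high (1508 to 1514 TPM), 4 macrophage markers including Cd14 were still raised, and the macrophage sum was 688 to 832 TPM, with Lyz2 reduced. The part of these cell types in the level of Sqstm1 was not tested. Of its exonic bases, 17.3% overlap Mrnip on the other strand, a gene listed at 1.83 to 3.70 TPM.

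Vmp1 (ENSMUSG00000018171, chr11:86583865-86683836), the endoplasmic reticulum protein of autophagosome growth, followed the same order. It measured 85.6 and 95.02 TPM in saline, 342 and 339 in AP, and 302 and 311 in polyI:C-pretreated AP mice. No pair of groups overlapped, AP samples were highest, and the pretreated samples lay closer to them than to saline. Vmp1 rose in AP by 1.91 on the log2 scale (SE 0.09, adjusted p = 4.9e-05, limma), 3.76-fold, and in polyI:C-pretreated AP against saline by 1.76 (SE 0.09, adjusted p = 5.9e-05). With median-of-ratios scaling the values were 1.48 and 1.31. Of the exonic bases of Vmp1, 2.38% overlap the microRNA gene Mir21a on the same strand, which was not analysed here.

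**Figure D2:**
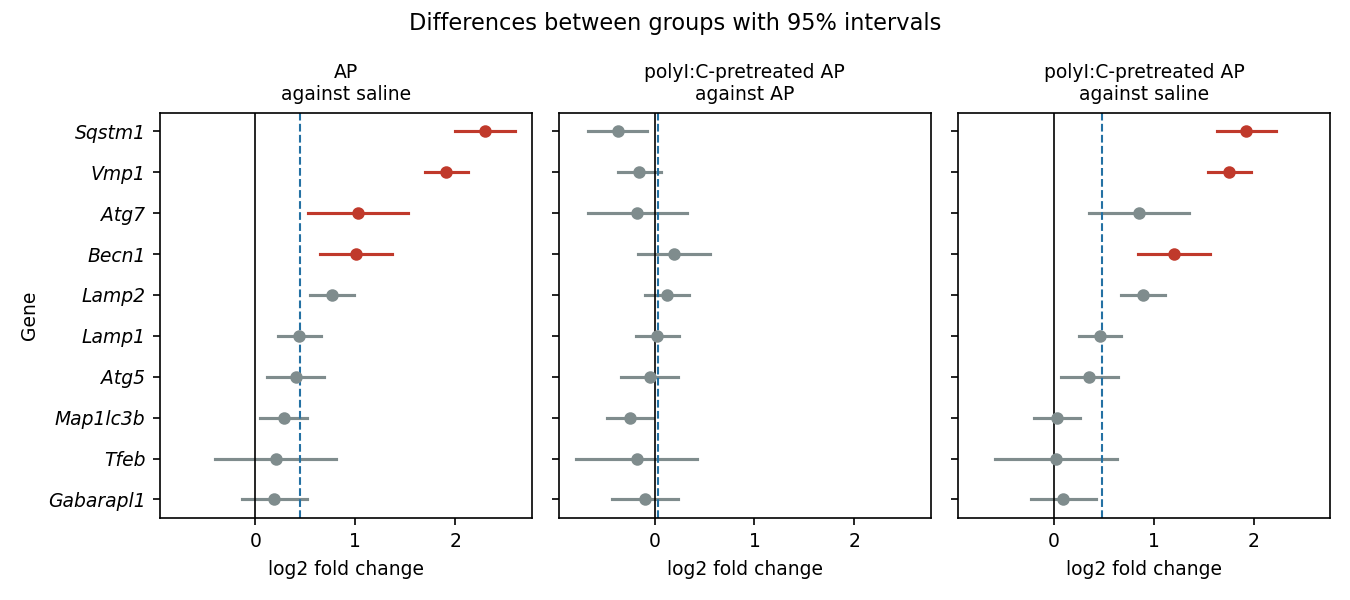
Differences in log2 TPM for the 10 genes in the 3 comparisons. Points are estimates and bars 95% intervals of the limma fit (n = 2 per group), red marks called genes, the solid line is 0 and the dashed line the median of all tested genes (0.45, 0.04 and 0.48). Sqstm1, Vmp1 and Becn1 are red in both comparisons with saline, Atg7 only in the first, and no gene in the middle panel.

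Becn1 (ENSMUSG00000035086, chr11:101285952-101302286), the nucleation subunit, measured 14.7 and 19.7 TPM in saline, 33.2 and 36.3 in AP, and 40.4 and 39.4 in polyI:C-pretreated AP mice. Its 3 groups did not overlap, and the polyI:C-pretreated mice were highest. It rose by 1.01 (SE 0.15, adjusted p = 0.0024, limma) in AP and by 1.20 (SE 0.15, adjusted p = 0.0013) in polyI:C-pretreated AP against saline. The first value lies at the 2-fold limit. Fits that leave out a sample keep 1 in its group, and that sample is assumed to vary like those of the other groups. The call was lost with a pseudocount of 1 TPM (0.99), with median-of-ratios scaling (0.58), without saline replicate 1 (0.80) and without AP replicate 2 (0.94), and the second was lost with that scaling (0.76) and without saline replicate 1 (0.999). Cntd1 on the opposite strand overlaps 43.9% of the exonic bases of Becn1 and was listed at 0.435 to 1.44 TPM.

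Of the conjugation enzymes, Atg7 was raised and Atg5 was not called. Atg7 (ENSMUSG00000030314, chr6:114643097-114860614), the E1-like enzyme, measured 11.1 and 7.05 TPM in saline, 19.1 and 18.0 in AP, and 16.9 and 15.9 in polyI:C-pretreated AP mice. All caerulein-treated samples exceeded both saline samples, which differed from each other more than those of any other group. Atg7 rose in AP by 1.03 (SE 0.21, adjusted p = 0.0083, limma), and in polyI:C-pretreated AP the difference from saline was 0.85 (SE 0.21, adjusted p = 0.018), short of 2-fold. The AP call was lost at a pseudocount of 1 TPM (0.99), with median-of-ratios scaling (0.61, adjusted p = 0.062), without saline replicate 2 (0.72), without AP replicate 1 (0.99, adjusted p = 0.091) and without AP replicate 2 (1.06, adjusted p = 0.074). Without saline replicate 1, the polyI:C-pretreated AP value was 1.16 and passed the threshold.

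Atg5 (ENSMUSG00000038160, chr10:44268358-44364291), part of the E3-like complex, measured 69.6 and 75.5 TPM in saline, 102 and 90.7 in AP, and 98.0 and 88.1 in polyI:C-pretreated AP mice. Saline samples were lowest, and the 2 caerulein groups overlapped. The AP difference of 0.40 (SE 0.12, adjusted p = 0.035, limma) passed the adjusted p but not the fold, lay below the median of all genes, and became -0.02 with median-of-ratios scaling.

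The Atg8 genes Map1lc3b and Gabarapl1 were not called in any comparison. Map1lc3b (ENSMUSG00000031812, chr8:121590361-121598760) measured 97.8 and 103 TPM in saline, 121 and 123 in AP, and 109.6 and 96.3 in polyI:C-pretreated AP mice. AP samples were highest, and the other groups overlapped. Its AP difference of 0.28 (SE 0.10, adjusted p = 0.057, limma) turned to -0.15 with median-of-ratios scaling. Pseudogenes such as Gm6055 share 2.87% of its stretches of 100 bases. Gabarapl1 (ENSMUSG00000030161, chr6:129533160-129542346) measured 107 and 123 TPM in saline, 122 and 140.3 in AP, and 134 and 113 in polyI:C-pretreated AP mice. All 3 groups overlapped, and the AP difference was 0.19 (95% interval -0.14 to 0.52), or -0.24 with that scaling. Of its exonic bases, 28.3% overlap 1700101I11Rik on the other strand, not analysed here.

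The lysosomal membrane genes stood higher in both caerulein groups by less than 2-fold. Lamp1 (ENSMUSG00000031447, chr8:13159161-13175338) measured 497 and 517 TPM in saline, 656 and 719.8 in AP, and 713 and 688 in polyI:C-pretreated AP mice. Both caerulein groups lay above saline and overlapped each other. The differences from saline were 0.44 (SE 0.09, adjusted p = 0.0083, limma) and 0.47 (SE 0.09, adjusted p = 0.0069), close to the median gene, and 0.01 with median-of-ratios scaling in both. Lamp2 (ENSMUSG00000016534, chrX:38401357-38456454) measured 112 and 107 TPM in saline, 182 and 192 in AP, and 215 and 194 in polyI:C-pretreated AP mice. Its 3 groups did not overlap. The differences from saline were 0.77 (SE 0.09, adjusted p = 0.0010) and 0.89 (SE 0.09, adjusted p = 0.00065), and 0.34 and 0.44 with that scaling. Whether Lamp2 differed more than Lamp1 was not tested.

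Tfeb (ENSMUSG00000023990, chr17:47737030-47792419) had the lowest level. It measured 3.32 and 4.77 TPM in saline, 4.87 and 4.46 in AP, and 3.97 and 4.16 in polyI:C-pretreated AP mice. Saline overlapped both other groups. The AP difference was 0.20 (95% interval -0.41 to 0.81), an interval that holds both lower and higher levels, and it was -0.18 with median-of-ratios scaling. Tfeb is known to be regulated largely by phosphorylation and nuclear entry, which RNA levels do not report.

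**Figure D3:**
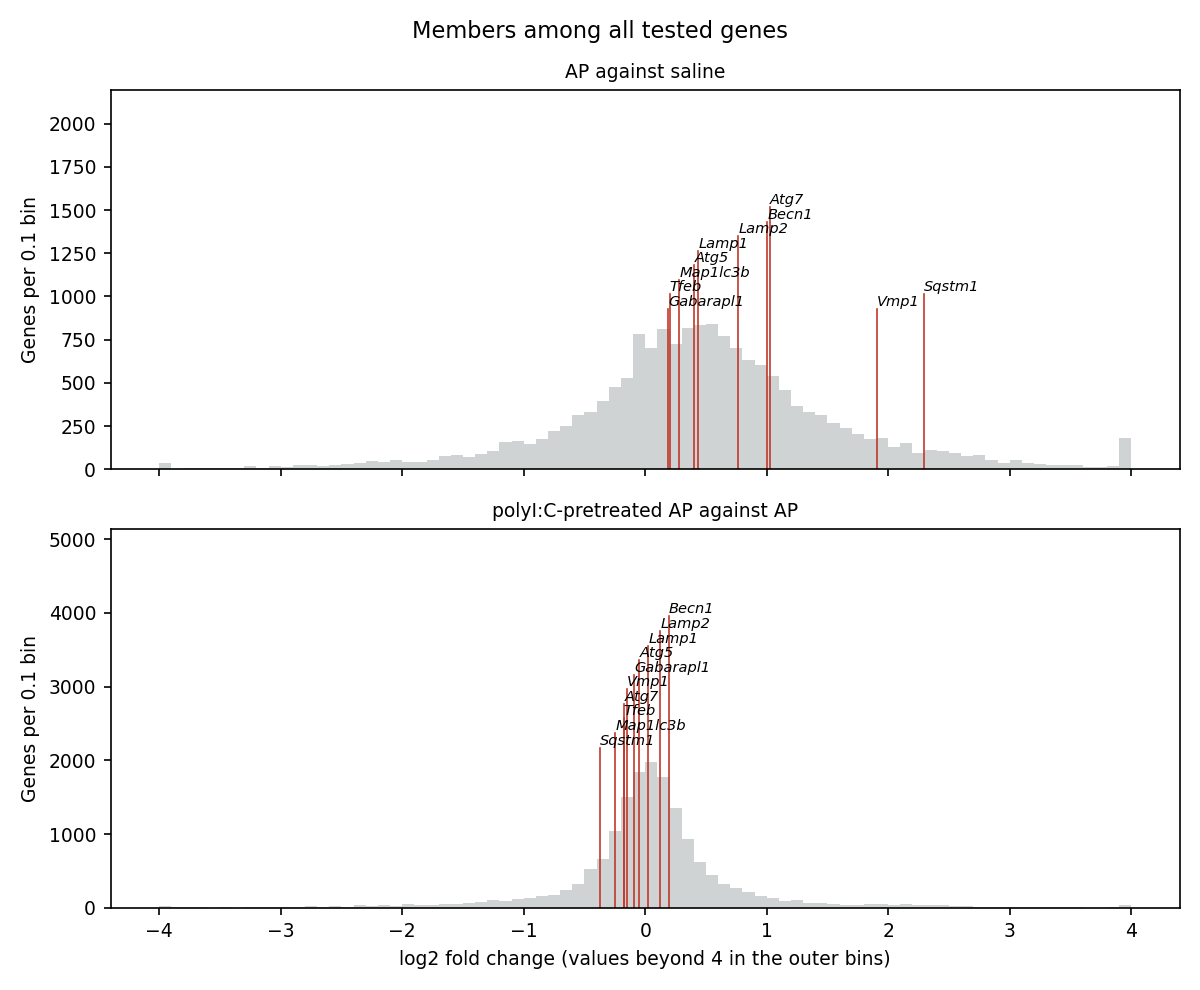
Distribution of log2 differences of all 16814 tested genes in 0.1 bins for AP against saline (top) and polyI:C-pretreated AP against AP (bottom), with the 10 genes as red lines whose height only spaces the labels. In the top panel Sqstm1 and Vmp1 lie in the right tail, with 5.89% of genes beyond Sqstm1, and Lamp1 lies near the median. In the bottom panel all 10 lie between -0.37 and 0.20.

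The second comparison, polyI:C-pretreated AP against AP, asks whether pretreatment altered these genes. None of the 10 was called, against 0.845% of all tested genes in either direction, and 2 had an unadjusted p of at most 0.05 (limma), against 13.9%. The groups did not overlap for 7 of the 10, against 49.8% of all genes. Both pretreated samples were lower for Sqstm1, Vmp1, Map1lc3b, Atg7 and Tfeb, and both were higher for Becn1 and Lamp2. The median difference was -0.12 beside 0.04 for all genes. The 2 genes with the small unadjusted p were Sqstm1, at -0.37 (95% interval -0.67 to -0.07, adjusted p = 0.26), and Map1lc3b, at -0.24 (95% interval -0.48 to -0.01, adjusted p = 0.33). Vmp1 differed by -0.15 (95% interval -0.37 to 0.06, adjusted p = 0.53), Becn1 by 0.20 (95% interval -0.17 to 0.56) and Lamp2 by 0.12 (95% interval -0.10 to 0.34). The intervals of the 10 genes together ran from -0.79 to 0.56, so a 2-fold difference in either direction lay outside all of them. Beside these values, the macrophage sum was lower in both pretreated mice, and 4 of the 8 acinar markers were raised in this comparison.

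The third comparison, polyI:C-pretreated AP against saline, shares its samples with the other two and is not independent of them. Sqstm1, Vmp1 and Becn1 were raised and none of the 10 was reduced, against 16.9% and 2.97% of all genes. At the adjusted p alone 6 were higher, against 33.4%, and both pretreated samples exceeded both saline samples for 7, against 54.4%. With median-of-ratios scaling Sqstm1 and Vmp1 were raised, against 7.96% of all genes. The median of the 10 was 0.66 beside 0.48 for all genes.

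**Figure D4:**
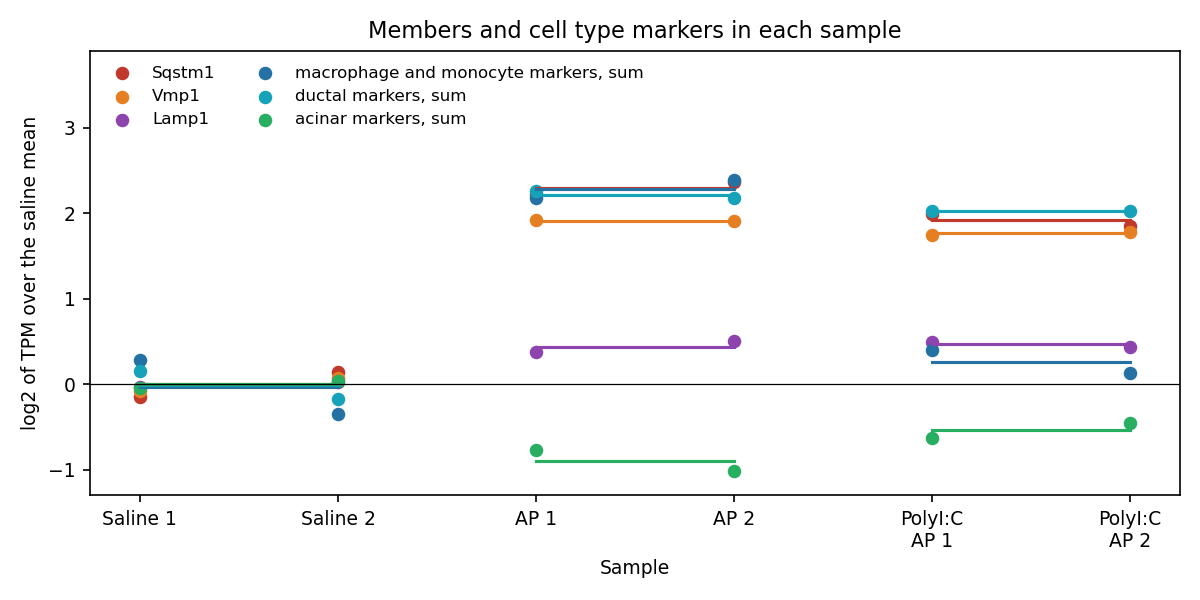
Level of Sqstm1, Vmp1 and Lamp1 and of the summed macrophage, ductal and acinar markers in each sample, as log2 of TPM over the mean of the saline mice. Points are samples and lines the mean of the 2 points of a group. In the pretreated mice Sqstm1 stands at 1.99 and 1.86, Vmp1 at 1.74 and 1.78, the ductal sum at 2.03 and 2.02, and the macrophage sum at 0.40 and 0.13, after 2.18 and 2.39 in AP mice.

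The other genes of the pathway were taken from 11 lists of 131 genes, of which 130 were tested. These lists, too, were chosen with earlier results of these data known. In AP against saline 25 were raised, 2 reduced and 103 not called (19.2% raised, beside the background of 18.2%), with a median of 0.51. After median-of-ratios scaling 9 of the 130 were raised, against 9.46% of all tested genes. There 2 of the 130 were reduced, against 1204 of the 16814 tested genes. The shares differed between the lists, and whether one list differed from another was not tested. None of the 5 genes of the initiation complex, the 8 membrane supply genes, the 8 conjugation genes and the 9 MiT/TFE genes was called. Raised genes made up 6 of 16 for the proton pump that acidifies the lysosome and 10 of 30 for the lysosomal hydrolases and their cofactors, with medians of 0.91 and 0.71. With median-of-ratios scaling these fell to 2 of 16 and 5 of 30, with medians of 0.48 and 0.29, and 7 of the 11 lists held no raised gene.

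Among the hydrolases, Lgmn, an asparaginyl endopeptidase, had the largest difference. It measured 27.4 and 10.8 TPM in saline, 203 and 229.6 in AP, and 126 and 125 in polyI:C-pretreated AP mice, and rose by 3.61 in AP (SE 0.37, adjusted p = 0.00058, limma). The groups did not overlap, and pretreated samples lay between the others. Galns, a sulfatase, rose by 1.93 and Lipa, the lysosomal acid lipase, by 1.85. Others that were raised included Gla, Manba, Scpep1, Psap, Gusb and Sgsh, by 1.10 to 1.46. Sgsh and Galns were low in saline mice, at 1.21 and 1.43 TPM for Sgsh and 3.32 and 3.005 TPM for Galns, so their rises rest on few reads there. Of the pump subunits, Atp6v1b2 rose by 1.60, Atp6v0e by 1.46 and Atp6v1a by 1.26. Of 19 membrane proteins, Cd63, a tetraspanin, rose by 1.35, Cln3 by 1.34 and Lamtor5, a scaffold of mTORC1 at the lysosome, by 1.05. Without AP replicate 2, Lamtor5 was at 0.89 and no longer called. With median-of-ratios scaling no membrane protein of the list was called (Cd63 0.92, Cln3 0.94, Lamtor5 0.63), and of the genes named here Atp6v1a (0.83), Scpep1, Psap, Gusb and Sgsh (0.68 to 0.77) also lost the call, while Lgmn, Galns, Lipa, Gla, Manba, Atp6v1b2 and Atp6v0e kept it.

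The paralogs of the 10 genes differed in size and sign. Map1lc3a, a sister of Map1lc3b, measured 71.7 and 74.4 TPM in saline, 310.1 and 274 in AP, and 266 and 214 in polyI:C-pretreated AP mice, and rose by 1.99 in AP (SE 0.14, adjusted p = 0.00015, limma). Both caerulein groups lay well above saline, and Map1lc3a was called with median-of-ratios scaling too. Gabarap differed by -0.23 (adjusted p = 0.081) and Gabarapl2 by 0.32 (adjusted p = 0.11), the latter turning to -0.10 with that scaling. Whether Map1lc3a differed more than Map1lc3b was not tested. Of the relatives of Tfeb, Tfe3 stood 0.92 higher in AP (adjusted p = 0.0090, below 2-fold), Mitf differed by -0.39 (adjusted p = 0.26), and Tfec, at most 0.51 TPM in any sample, was not tested.

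Among 12 other autophagy receptors 2 were raised and 2 reduced. Optn, a receptor of ubiquitinated cargo, rose by 1.62 and Tex264, a receptor for the endoplasmic reticulum, by 1.05. Retreg1, also an endoplasmic reticulum receptor, measured 728 and 979 TPM in saline, 241 and 250.1 in AP, and 430.3 and 295 in polyI:C-pretreated AP mice, and fell by 1.78 in AP (SE 0.21, adjusted p = 0.00090, limma). Its groups did not overlap. Bnip3, a mitochondrial receptor, measured 62.5 and 72.2 TPM in saline, 20.4 and 21.1 in AP, and 23.7 and 18.9 in polyI:C-pretreated AP mice, and fell by 1.67 (SE 0.17, adjusted p = 0.00050). The 2 reductions were also called with median-of-ratios scaling and against saline in the pretreated mice, although Retreg1 without polyI:C-pretreated AP replicate 2 was at -0.97 there and not called. Atg14, a partner of Beclin 1, rose by 1.03, and was at 0.96 and not called without saline replicate 1. In the fusion machinery Vps18 rose by 1.22 and Plekhm1 by 1.14. Plekhm1 lost the call without AP replicate 1 (adjusted p = 0.067) or AP replicate 2 (adjusted p = 0.054). With median-of-ratios scaling Optn was still called, and Tex264 (0.62), Atg14 (0.61), Vps18 (0.82) and Plekhm1 (0.74) were not.

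**Figure D5:**
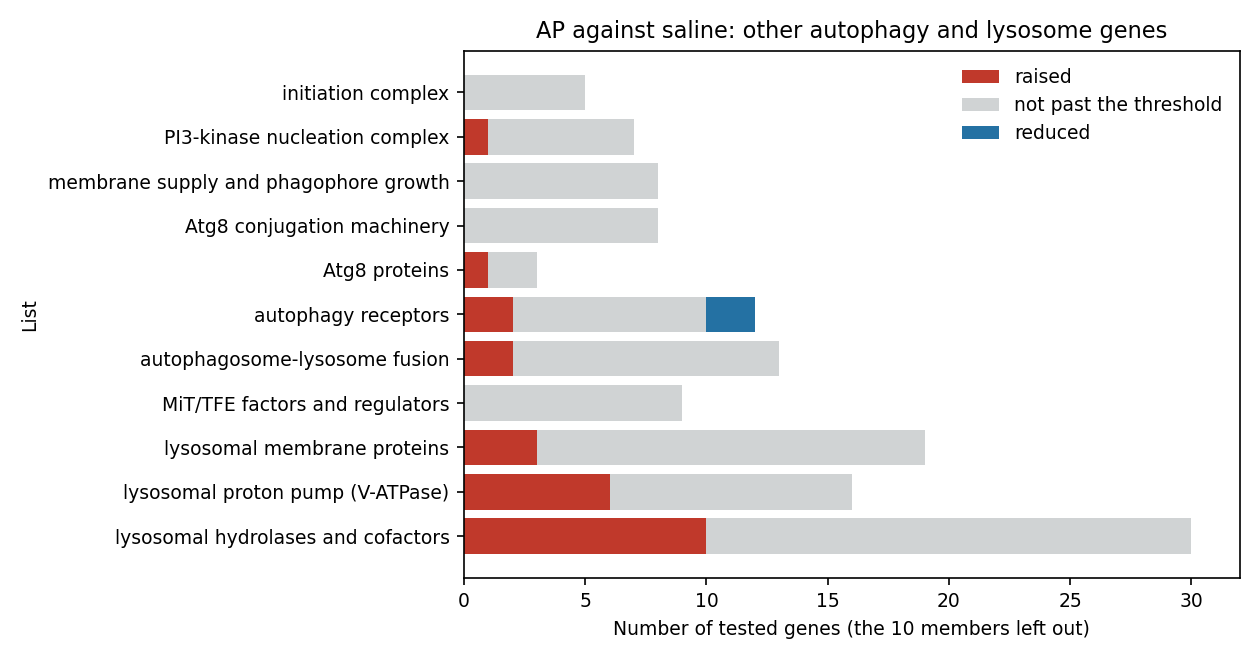
Number of tested genes in each of the 11 lists that were raised (red), reduced (blue) or not past the threshold (grey) in AP against saline, without the 10 genes described above. The proton pump shows 6 raised of 16 and the hydrolases 10 of 30 (2 and 5 with median-of-ratios scaling, which is not drawn), 4 lists show none (7 with that scaling), and the only 2 reduced genes, Retreg1 and Bnip3, are receptors.

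In polyI:C-pretreated AP against AP none of the 130 genes was called, beside 0.845% of all tested genes. Of the 130, 23 (17.7%) had an unadjusted p of at most 0.05 (limma), beside 13.9% of all tested genes. The smallest adjusted p was 0.056. Against saline, 22 of the 130 were raised and 2 reduced in the pretreated mice (16.9% raised), which equals the 16.9% raised over all tested genes. Of these 22, 18 were among the 25 raised in AP against saline, 72.0% of the first list and 81.8% of the second, in comparisons that share the saline mice.

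The genes whose log2 level was most like that of Sqstm1 over the 6 samples, among 9413 genes whose mean reached 10 TPM, were Kctd3, Zdhhc13 and Sccpdh, and those most like Lamp2 were Gclc, Psmd1 and Cdk12. Likeness was ranked by Pearson's r of log2(TPM + 0.5). It was a weak criterion here, as 2145 genes reached an r above 0.95 with Sqstm1 and 1982 with Lamp2, and the 6 samples fall into saline and caerulein-treated mice. Kctd3 measured 16.1 and 17.5 TPM in saline, 37.7 and 39.3 in AP, and 34.2 and 33.1 in polyI:C-pretreated AP mice, the same order of groups as Sqstm1. Gclc, a subunit of the enzyme for glutathione synthesis, measured 39.5 and 35.6, 356 and 455, and 773 and 509.7 TPM, with the pretreated mice highest as for Lamp2.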

How the data were processed

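Whole pancreas RNA of 6 mice was sequenced. Per the study's methods, the authors used Trimmomatic for trimming, STAR for alignment to mm10, HTSeq for gene counts and DESeq2 for tests. The deposited values are TPM per gene, which the authors made from their reads, and the gene lengths used are not given in the sources used here. The labels name 2 library kits, so the strand setting is uncertain.

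Values were used as deposited. log2(TPM + 0.5) of the 16814 genes averaging 1 TPM or more was fitted with limma 3.58.1 (R 4.3.3), 1 coefficient per group over all 6 samples, with a variance prior following log2(mean TPM × exon length + 1). Fold changes are on that scale and understate those of low genes. Reads were estimated from the spacing of low TPM × exon length, where 33.7% to 38.7% of low values lay within 0.1 of a whole read, against 19.1% to 20.8% with shuffled lengths, so depth is approximate.

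The members and lists were chosen with earlier results of these data known. Beside the 10 members, the rule named up to 3 genes per list with the largest called difference in AP against saline, those called in the second comparison, and paralogs. Tex264 and the further hydrolases were named after their values were seen. Acinar markers without values were not analysed here. Exon overlaps used GRCm38 annotation. Alternatives covered pseudocount, filter, scaling, prior, threshold, voom on estimated reads, a replicate block and leaving out each sample. Protein sequences were not analysed here, and 1 list gene is counted but not reported by name.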

Additional observations from a re-analysis of the deposited data

How the results depend on the processing

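The number of the 10 genes called in AP against saline was 4 and became 2 with a pseudocount of 1 TPM, 2 with median-of-ratios scaling and 7 at the adjusted p alone, and it ranged from 2 to 4 when each sample was left out. In polyI:C-pretreated AP against saline it was 3, and 6 at the adjusted p alone. For the other list genes, raised and reduced together, AP against saline gave 27, 11 with median-of-ratios scaling, 77 at the adjusted p alone and 26 to 32 with a sample left out, and polyI:C-pretreated AP against saline gave 24, 12, 86 and 21 to 29. At the adjusted p alone, 33.0% of all tested genes were raised in AP against saline, beside 69 of the 130 list genes. In polyI:C-pretreated AP against saline it was 33.4%, beside 75 of the 130. With median-of-ratios scaling the shares raised were 9.46% and 7.96%, beside 9 and 8 of the 130. These shares are descriptive only. In polyI:C-pretreated AP against AP 0.845% of all tested genes were called. There 0 of the list genes became 1 with a mean of at least 5 TPM and 1 with voom. It was also 1 at the unadjusted p, with the 2-fold limit kept. Median-of-ratios scaling turned the sign of Map1lc3b (-0.15 in AP and -0.42 in polyI:C-pretreated AP, against saline), Gabarapl1 (-0.24 and -0.36), Atg5 (-0.024 and -0.10), Tfeb (-0.18 and -0.38), Gabarapl2 (-0.10 and -0.028), and of Plekhm1 between the caerulein groups (-0.0063). By its construction it subtracts most of the shift of the median gene. With each sample left out in turn, the spread of the lone sample coming from the other groups, values near 0 changed sign. Against saline the range was -0.031 to 0.44 for Tfeb in AP and, in polyI:C-pretreated AP, -0.0554 to 0.13 for Map1lc3b, -0.022 to 0.22 for Gabarapl1 and -0.21 to 0.26 for Tfeb. Between the caerulein groups it was -0.21 to 0.029 for Gabarapl1, -0.13 to 0.035 for Atg5, -0.040 to 0.094 for Lamp1, -0.13 to 0.19 for Bnip3, -0.16 to 0.26 for Optn, -0.23 to 0.26 for Plekhm1, -0.029 to 0.31 for Lamtor5, -0.14 to 0.35 for Atp6v1b2 and -0.26 to 0.085 for Lipa. None of these was called. Same-numbered samples did not deviate together (r of 0.0075, 0.035 and -0.0039). No pairing by number was seen, but this cannot exclude one, as the labels do not say how the samples were handled. A replicate block left the calls of the 10 genes at 4, 0 and 3. Over single genes and settings, 1278 values kept direction and side of the threshold, 28 lost the call, 8 gained it and 30 turned. Among the 10 genes, depth limits Tfeb most, with 27 estimated reads in its lowest sample.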

Other observations

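Gm2a, a lysosomal cofactor of lipid breakdown, was chosen here after its values were seen. It measured 23.6 and 18.0 TPM in saline, 28.6 and 24.1 in AP, and 11.7 and 12.9 in polyI:C-pretreated AP mice. Both pretreated samples lay below the other 4. The difference between pretreated and AP mice was -1.06 on the log2 scale (SE 0.18, adjusted p = 0.056, limma) and did not pass the threshold. Gm2a was the single list gene that passed in polyI:C-pretreated AP against AP with a stricter filter, with voom or at the unadjusted p. The 2-fold limit was kept in each of these settings.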
